A study of Mus musculus with 11 samples.

Results

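The protein-coding genes of the cytosolic ribosome were followed across 11 RNA-seq libraries of mouse primary myoblasts. Genes were taken by symbol: Rpl or Rps with a number and an optional a, x or l1 ending, together with Rpsa, Rplp0, Rplp1 and Rplp2. Of 78 genes that matched, Rps13 and Rps15a were left out by the rule, which left 76 of the 22104 genes listed. No gene of the 76 fell under the minimum of 10 normalized counts in at least 2 libraries, so all 76 were among the 14729 genes tested. They comprised 28 genes of the small subunit and 48 of the large subunit.

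Each cytosolic ribosome holds 1 set of ribosomal RNAs and a set of proteins most of which are present once, so their genes are among the most strongly transcribed in growing cells. Many of their mRNAs start with a C followed by a run of pyrimidines, the TOP motif, through which mTORC1 signalling sets how often they are translated. Low oxygen is known to restrain mTORC1, in part through DDIT4, and BMAL1 is a transcription factor of the circadian clock that binds E-boxes. mRNA levels of ribosomal protein genes, which these libraries measure, are therefore only 1 layer of the control of ribosome number.

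The myoblasts came from the tibialis anterior muscle of C57BL/6 mice about 8 weeks old that were either Bmal1-/- (KO) or wild-type (WT). Cells grown in Ham's F-10 medium with 20% serum and 2.5 ng/ml bFGF spent 6 h at 1% oxygen (hypoxia) or at 21% oxygen (normoxia). The groups were KO hypoxia, KO normoxia and WT hypoxia with 3 libraries each, and WT normoxia with 2. Nothing in the labels ties a library to an animal or a culture, so the p-values measure the spread between libraries, which may be technical. Values are normalized counts: reads per gene divided by 1 size factor per library. The labels do not name the exons removed by the Bmal1 deletion. Arntl, which encodes BMAL1, stood at 98.8 to 134 normalized counts over the 6 KO libraries, against 264 to 328 over the 5 WT libraries, without overlap.

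Libraries held 18707697 to 33613328 reads, and every hypoxia library was deeper than every normoxia library. Genes of the mitochondrial chromosome took 22.1% to 24.4% of reads. Summed myoblast markers (8 of 8 listed, among them Myod1, Pax7 and Des) reached 52944 to 55090 normalized counts over the KO libraries. Over the WT libraries they reached 47535 to 51477, without overlap. Single myoblast markers were divided: 4 of the 8 had a positive log2 difference in KO against WT normoxia (median 0.04, from -0.22 to 0.59). In KO against WT hypoxia 6 of the 8 were positive (median 0.06, from -0.03 to 0.51). Summed endothelial markers (5 of 5 listed), leukocyte markers (3 of 5 listed) and Schwann cell markers (4 of 4 listed) stayed between 16.2 and 61.4 normalized counts. Markers of differentiated muscle (6 of 6 listed) summed to 28676 to 33070 over the KO libraries and 18084 to 23661 over the WT libraries. Fibroblast markers (8 of 8 listed) summed to 12171 to 14057 over the KO libraries and 15884 to 17565 over the WT libraries. Pericyte and smooth muscle markers (5 of 5 listed) summed to 24590 to 25084 in KO hypoxia, 27895 to 28172 in KO normoxia, 27654 to 28907 in WT hypoxia and 31272 to 32757 in WT normoxia. Most single markers of this list did not follow its sum between genotypes in normoxia. Of the 4 tested, 3 had a positive log2 difference in KO against WT normoxia (median 0.38, from -0.2 to 0.7). In KO against WT hypoxia 2 of the 4 were positive (median -0.03). A sum follows the most abundant markers of its list. The marker sums move with genotype or oxygen, and their part in the differences between groups given below was not tested. In bulk RNA, fewer cells of a type and less RNA per cell cannot be told apart.

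The start sites of these genes are shown because the pyrimidine start is the feature that places them in 1 translational class. Promoter windows of 300 bases (250 before and 50 after the annotated start, RefSeq, GRCm38.p6) were matched for 56 of the 76 genes. Only a run that opens at the annotated start base was counted, and whether these cells use that base was not tested. The share is therefore not a count of the mRNAs with a TOP motif. In 12 of the 56 (21.4%) the annotated start base was a C that opened an unbroken run of at least 5 C and T letters. Of the 27025 genes with a window, 3.01% had such a run. The following 40-base stretches hold the 20 bases before the start and the 20 from it, written 5′ to 3′ on the coding strand, with capitals marking that run. The first is Rps6, the S6 kinase substrate of the small subunit; the others belong to the large subunit, among them the stalk protein gene Rplp2.
Rps6, chr4:86857348-86857387, minus strand: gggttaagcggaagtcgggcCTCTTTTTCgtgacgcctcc
Rpl15, chr14:18270967-18271006, minus strand: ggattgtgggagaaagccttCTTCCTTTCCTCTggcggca
Rpl28, chr7:4792945-4792984, plus strand: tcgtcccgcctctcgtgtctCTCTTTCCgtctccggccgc
Rpl35a, chr16:33056462-33056501, plus strand: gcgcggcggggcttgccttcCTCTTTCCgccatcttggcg
Rpl38, chr11:114668560-114668599, plus strand: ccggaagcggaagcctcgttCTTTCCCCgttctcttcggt
Rplp2, chr7:141447631-141447670, plus strand: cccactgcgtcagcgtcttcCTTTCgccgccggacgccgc

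The E-box CACGTG, the site that BMAL1 is known to bind with CLOCK, is palindromic and therefore reads the same on both strands. It was present in the windows of 6 of the 56 genes (10.7%), against 8.09% of all genes with a window. The 6 sites are printed with 15 bases on each side and the E-box in capitals, because KO against WT is the comparison of the study that bears on them.
Rpl13a, chr7:45128925-45128960, minus strand: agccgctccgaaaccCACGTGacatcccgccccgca
Rpl14, chr9:120571334-120571369, plus strand: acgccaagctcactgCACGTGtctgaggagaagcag
Rpl19, chr11:98026676-98026711, plus strand: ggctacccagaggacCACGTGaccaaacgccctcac
Rpl23, chr11:97782422-97782457, minus strand: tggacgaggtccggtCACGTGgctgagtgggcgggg
Rpl34, chr3:130730533-130730568, minus strand: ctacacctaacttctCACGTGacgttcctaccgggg
Rps19, chr7:24884778-24884813, plus strand: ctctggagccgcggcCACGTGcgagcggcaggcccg
The shorter ACGTG, which lies within CACGTG and is the core of the hypoxia response element, was present on either strand in 18 genes (32.1%), against 21.8% of all genes. CCGGAAG, the ETS motif, was present on either strand in 23 genes (41.1%), against 9.93%. The TATA letters TATAAA on the coding strand were present in 6 genes (10.7%), against 9.77%. These matches describe letters in the windows and not bound sites.

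The 76 genes stood near the top of the expressed genes. Ranked by mean value over the libraries, 24 of the 100 highest of all genes tested, 72 of the 500 highest and 74 of the 1000 highest were ribosomal protein genes. A gene had between 1446 and 63571 reads in a library. The mean value ran from 1770 normalized counts for Rps27 to 45041 for Rplp0, with a median of 12696. Together the 76 genes took 4.61% to 4.73% of reads in KO hypoxia, 4.79% to 4.84% in KO normoxia, 4.52% to 4.82% in WT hypoxia and 4.67% and 4.79% in WT normoxia. The KO hypoxia shares lay below the KO normoxia shares, and the WT groups overlapped. Of the reads outside the mitochondrial chromosome, they took 5.98% to 6.17% in KO hypoxia, 6.21% to 6.40% in KO normoxia, 5.88% to 6.22% in WT hypoxia and 6.00% and 6.18% in WT normoxia.

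Levels are compared between genes per kilobase of the shortest coding transcript in the consensus set (CCDS), since longer transcripts give more reads. On that scale the median was 18030 normalized counts per kilobase, 67 of the 76 genes lay within 2-fold of it, and 10% of genes lay below 9832 and 10% above 27666. The highest levels were those of Rpl41 (46309), which encodes the smallest ribosomal protein, Rplp1 (43805), an acidic protein of the stalk that recruits translation factors, and Rps2 (42922), at the mRNA entry. The lowest level was that of Rpl7l1 (1967), a relative of Rpl7 (22653) known from ribosome assembly. Rps20 (4320) and Rps27 (5132) followed, but the only CCDS transcript of Rps20 spans 3706 bases, so its level rests on that length. With the union of all annotated exons as the length, Rplp1 was the highest at 43805 and Rpl7l1 the lowest at 737. The order of the levels was nearly the same in every library, with a lowest Spearman correlation of 0.99 between any pair of libraries, which share gene lengths and sequence composition.

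**Figure D1:**
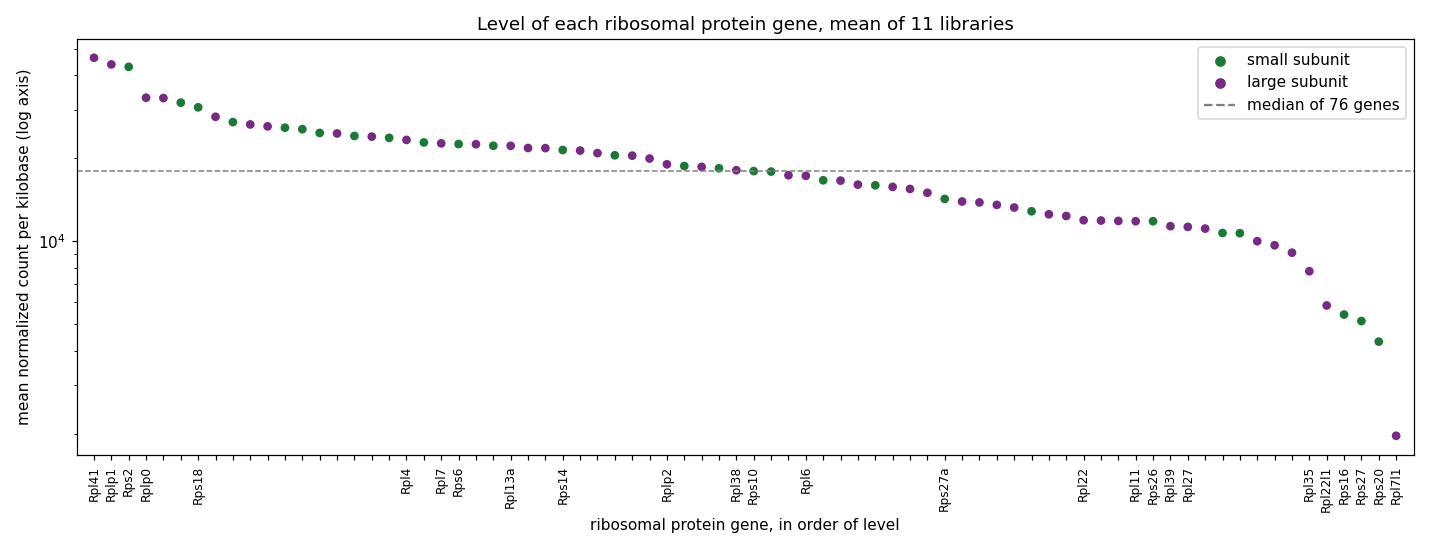
Mean normalized count per kilobase over 11 libraries (log axis) for each of the 76 genes, in order of level and coloured by subunit; the dashed line is the median, 18030, and some genes are named. Most genes lie on a shallow slope, and Rpl7l1 at 1967 lies apart at the low end.

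The levels also held steady between libraries. Across all 11 libraries, a gene's highest value exceeded its lowest by 0.18 on the log2 scale at the median, from 0.09 for Rpl4 to 0.54 for Rps16, and the range was under 0.5 for 74 of the 76 genes. The SD within groups was 0.047 log2 units at the median of the 76 genes, against 0.12 for all genes tested and 0.058 for the 1954 genes at or above the level of the lowest member. The 1954 genes were not matched to the 76 in level: their lower limit was 1770 normalized counts, and the median of the 76 was 12696. Among the 76, the SD was smallest for Rps10 (0.027), Rpl29 (0.032) and Rps15 (0.033), and largest for Rpl22l1 (0.14), Rps16 (0.11) and Rps20 (0.090). Of the genes often used as references for other measurements, Rplp0 had an SD of 0.037, Rps18 of 0.062 and Rpl13a of 0.070.

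What spread there was ran partly by library and not by group. The median log2 deviation of the 76 genes from their own means was 0.032, -0.008 and -0.021 in the KO hypoxia libraries 1 to 3. It was 0.049, 0.042 and -0.005 in KO normoxia, 0.038, -0.009 and -0.056 in WT hypoxia, and 0.004 and -0.065 in WT normoxia. The same median over all genes tested lay between 0.001 and 0.005 in every library. Of the 76 genes, 72 were above their own mean in KO normoxia library 1, 7 in WT hypoxia library 3 and 3 in WT normoxia library 2. The SD of these medians between libraries of a group was 0.038.

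**Figure D2:**
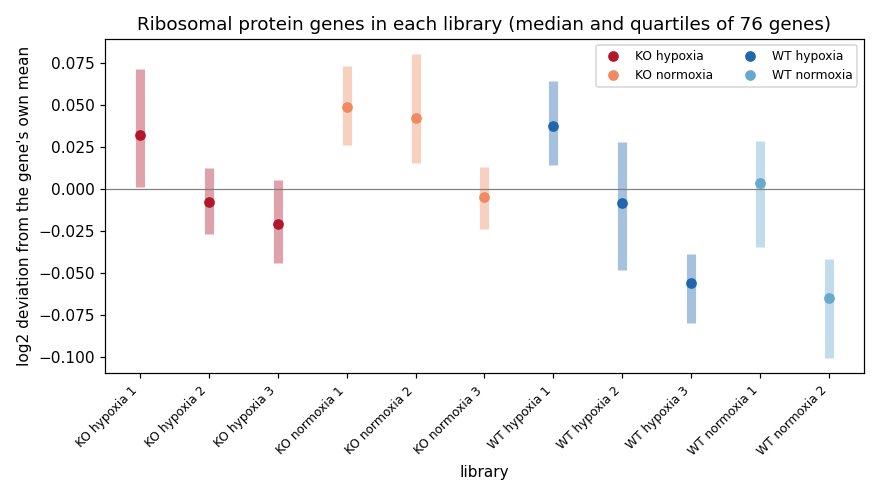
Median (points) and quartiles (bars) of the log2 deviation of the 76 genes from their own mean over 11 libraries, by library and coloured by group. Libraries of 1 group lie apart, as the WT hypoxia libraries do at 0.038 and -0.056, and WT normoxia library 2 (-0.065) is lowest.

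**Figure D3:**
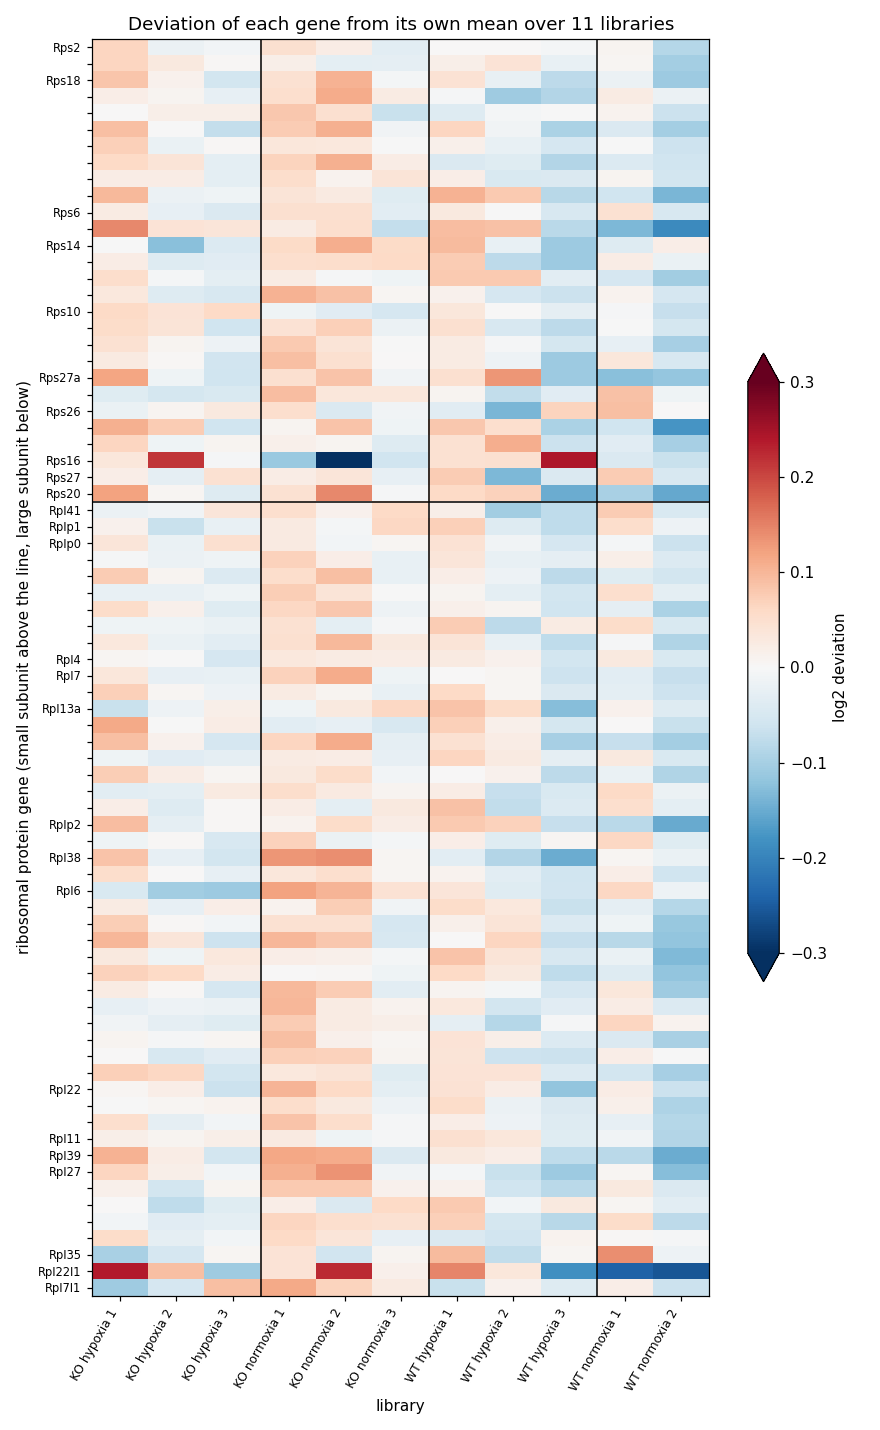
Log2 deviation of each gene (rows, small subunit above the line, by level, some named) from its own mean in each library (columns, by group); red is higher and blue lower, with colours ending at 0.3. Most cells are pale; Rps16 and Rpl22l1 have the widest ranges, 0.54 and 0.50.

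The first comparison asks whether 6 h of hypoxia changed ribosomal protein mRNAs in cells without Bmal1. In KO hypoxia against KO normoxia, Rpl6, a protein of the large subunit, fell, and no other gene of the 76 passed adjusted p 0.05 in limma with Benjamini-Hochberg adjustment over all genes tested. That is 0 genes higher and 1 lower of 76, where 3.15% of all genes tested were called higher and 0.937% lower (4.09% in either direction). At an unadjusted p under 0.05 there were 5 genes (6.58%), against 17.5% of all genes; there were 16 under total-count scaling and 20 under the same scaling without mitochondrial genes. edgeR called 0 higher and 1 lower, and DESeq2 called 1 higher, Rps16, and 1 lower. The median difference over the 76 genes was -0.032, against -0.005 over all genes tested, and 19 of the 76 were positive. It was -0.054 (7 positive) under total-count scaling and -0.064 (6 positive) without mitochondrial genes, where the medians of all genes were -0.026 and -0.036. Leaving out 1 library moved it between -0.047 (11 positive, without KO normoxia library 3) and -0.015 (26 positive, without KO hypoxia library 3), with -0.020 without KO normoxia library 1. In 4 genes (5.26%) every KO hypoxia library was above every KO normoxia library, against 11.9% of all genes, and in 11 (14.5%) every one was below, against 10.7%.

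Rpl6 stood at 21221, 20376 and 20317 normalized counts in KO hypoxia, against 23786, 23502 and 22576 in KO normoxia. The groups did not overlap, and KO hypoxia libraries 2 and 3 were the lowest of the 11. In WT hypoxia it stood at 22454, 21355 and 21035, against 22863 and 21677 in WT normoxia, where the groups overlapped. The KO difference was -0.17 (SE 0.04, 95% interval -0.26 to -0.09, adjusted p = 0.0191), a mean lower by 11.4%. The WT difference was -0.04 (SE 0.04, adjusted p = 0.729), and the test of the difference between the KO and WT effects gave -0.13 (SE 0.06, adjusted p = 0.917). The KO call ended without KO normoxia library 1 (adjusted p = 0.0914) or 2 (0.0804), without KO hypoxia library 2 (0.0819) or 3 (0.0816), and with no trend of variance (0.118). An annotated snoRNA gene, Gm26205, lies within Rpl6. The start of Rpl6 is shown because it was the 1 gene called; its start base is not a C, and capitals mark the ETS letters, which begin at base 13 counted from the start.
Rpl6, chr5:121204481-121204525, plus strand: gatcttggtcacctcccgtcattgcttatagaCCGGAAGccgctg

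Among genes that did not pass in KO cells, Rps16 of the small subunit had the largest positive difference. It stood at 6123, 6932 and 5962 normalized counts in KO hypoxia, against 5530, 4862 and 5735 in KO normoxia, without overlap. The difference was 0.24 (SE 0.07, adjusted p = 0.0902 in limma and 0.0281 in DESeq2). Both groups spread widely for a ribosomal protein gene, and in WT the difference was 0.17 (SE 0.08, adjusted p = 0.380). Rps10 (0.09) and Rpl13 (0.08) came next, and Rps14 (-0.13) and Rpl7l1 (-0.09) were among those at the other end, all with adjusted p of 0.183 or more. Rps14 and Ndst1 overlap on opposite strands, and whether strand was used in counting is not given in the sources used here. On the same strand, Rps10 overlaps RPS10-NUDT3 and Rpl13 overlaps Gm20388, and how reads in such overlaps were assigned is not given either.

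In WT cells the same exposure gave no call: of the 76 genes 0 were higher and 0 lower in limma, where 1.7% of all genes were called higher and 0.468% lower (2.17% in either direction). At an unadjusted p under 0.05 there were 7 genes (9.21%), against 13.6% of all genes; edgeR called 0 and DESeq2 called 1 higher. In 10 genes (13.2%) every WT hypoxia library was above both WT normoxia libraries, against 15.4% of all genes, and in 2 (2.63%) every one was below, against 14.4%. The median difference was 0.021, against -0.003 over all genes, with 49 of 76 positive. It was -0.027 under total-count scaling, which moved the median of all genes to -0.051, and ranged from -0.013 without WT normoxia library 2 to 0.059 without library 1. It was 0.006 without WT hypoxia library 1 and 0.048 without library 3, where 20 genes had an unadjusted p under 0.05 and 1 was called higher. That number was 3 without WT normoxia library 2, 2 without WT hypoxia library 2, 12 under total-count scaling and 1 with no trend of variance. The largest difference was that of Rpl22l1, given below, and among the next were those of Rps16 and of Rps27a (0.14, adjusted p = 0.351), the gene of a ubiquitin fused to a ribosomal protein. The smallest were those of Rpl38, Rps26 and Rpl29 (-0.08 each), with adjusted p of 0.430 or more.

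The precision of these values bounds what could have been missed for single genes on the scale of the size factors. A change in mRNA per cell shared by most genes would not show in normalized counts. The 95% interval of a gene reached 0.087 on either side of the KO difference and 0.098 on either side of the WT difference at the median. All 76 intervals lay within 0.5 of zero in both comparisons. Within 0.25 lay 74 intervals in KO and 68 in WT.

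The test of whether hypoxia acted differently in KO and WT cells called 0 of the 76 genes in either direction in limma, where 0.00679% of all genes, 1 gene, was called; edgeR and DESeq2 called 0 of the 76. At an unadjusted p under 0.05 there was 1 of the 76, Rpl6, against 5.32% of all genes. The smallest adjusted p was 0.917. The median of the difference between effects was -0.050, with 12 of 76 positive, against -0.002 over all genes. It was -0.086 without WT normoxia library 1, -0.013 without library 2 and -0.027 without WT hypoxia library 1. Under total-count scaling it was -0.022 with 24 positive, where the median of all genes was 0.025. The number with an unadjusted p under 0.05 was 14 without WT hypoxia library 3 and 7 without KO hypoxia library 1. The lowest values were those of Rpl22l1 (-0.27, SE 0.14), Rps27a (-0.17, SE 0.09), Rps20 (-0.15, SE 0.09) and Rplp2 (-0.15, SE 0.07), and the highest those of Rps26 (0.09), Rps16 (0.07), Rps27 (0.05) and Rps10 (0.05).

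The next comparison asks what the loss of Bmal1 did at 21% oxygen. In KO normoxia against WT normoxia, 70 of the 76 genes (92.1%) had a positive difference, against 51.1% of all genes tested, but the median was only 0.062, against 0.005 over all genes. In limma 0 genes were higher and 0 lower, where 3.44% of all genes were called higher and 5.66% lower (9.09% in either direction). At an unadjusted p under 0.05 there were 18 genes (23.7%), against 23.4% of all genes; edgeR called 0 and DESeq2 called 1 higher, Rpl22l1. That number of 18 was 1 without WT normoxia library 2, 6 without KO normoxia library 1, 5 without KO normoxia library 2, 5 under total-count scaling and 5 with no trend of variance. In 32 genes (42.1%) every KO library was above both WT libraries, against 18.8% of all genes, and in 0 genes every KO library was below, against 19.6%. The genes are not independent here, since a library that is low is low for most of them at once: the median was 0.027 with 56 genes positive without WT normoxia library 2, and 0.095 with 74 positive without library 1. Under total-count scaling it was 0.027 with 55 positive, while the median of all genes was -0.030.

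Rpl22l1 had the largest difference. Its product can take the place of RPL22 near the exit of the peptide tunnel, and in mice RPL22 is known to hold down Rpl22l1 mRNA. Rpl22l1 stood at 3135, 3558 and 3080 normalized counts in KO normoxia, against 2576 and 2549 in WT normoxia, without overlap. The difference was 0.34 (SE 0.10, 95% interval 0.12 to 0.56, adjusted p = 0.0517), just outside the threshold of 0.05. The adjusted p was 0.0114 in DESeq2, 0.0222 in a fit of these 2 groups alone, 0.0499 with a pseudocount of 5 and 0.0473 with a minimum value of 50. Without KO hypoxia library 1 or 3 or WT hypoxia library 1 or 3, it lay between 0.0297 and 0.0413. It missed the threshold in edgeR (0.0601), under the 4 other scalings (0.0537 to 0.0727), with no filter on low values (0.0695), with a pseudocount of 0.5 (0.0524), with no trend of variance (0.151), without KO or WT hypoxia library 2 (0.0684 and 0.065) and without any 1 library of the groups compared (0.0528 to 0.207). In hypoxia it stood at 3595, 3243 and 2829 in KO cells, against 3370, 3121 and 2683 in WT cells, and the groups overlapped (difference 0.07, SE 0.09, adjusted p = 0.724). Between WT hypoxia and WT normoxia it differed by 0.25 (SE 0.10, adjusted p = 0.293), also without overlap. The 2 WT normoxia libraries were thus the lowest of the 11 for this gene.

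Rpl22 itself stood at 6055, 5882 and 5528 normalized counts in KO normoxia, against 5735 and 5397 in WT normoxia, with overlap (difference 0.06, SE 0.06, adjusted p = 0.547). Per kilobase, Rpl22 averaged 11915 over the libraries and Rpl22l1 5843. The start of Rpl22l1 is shown because it varied most between the groups; its start base is a G, and capitals mark the first run after it that opens with a C and holds at least 5 C and T letters. Rpl22l1 and Gm33051 overlap on opposite strands.
Rpl22l1, chr3:28805488-28805532, plus strand: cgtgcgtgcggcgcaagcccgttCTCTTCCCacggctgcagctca

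Other large differences at 21% oxygen were those of Rps20 (0.19, SE 0.07, adjusted p = 0.108) and Rpl39 (0.18, SE 0.06, adjusted p = 0.0855). Rpl39, which encodes a small protein lining the exit tunnel, stood at 7511, 7487 and 6724 normalized counts in KO normoxia, against 6549 and 6247 in WT normoxia. Rps20 stood at 16478, 17649 and 15930 in KO normoxia, against 14941 and 14355 in WT normoxia. The groups did not overlap for either gene, and the third KO library was lowest in both. The 4 smallest differences were those of Rps16 (-0.10), Rpl35 (-0.06), Rps26 (-0.05) and Rps27 (-0.00), with adjusted p of 0.497 or more.

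**Figure D4:**
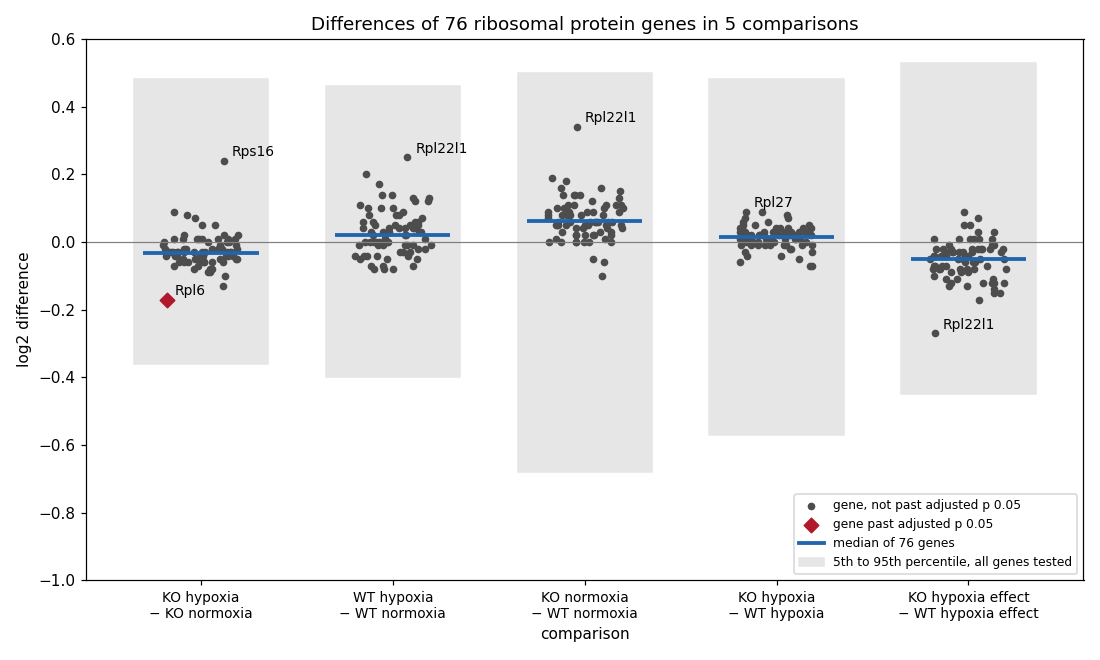
Log2 differences of the 76 genes in 5 comparisons (points, placed at random within a column), with their median (blue line) and the 5th to 95th percentile of all genes tested (grey). Rpl6 at -0.17 in KO cells is the single gene past the threshold, and every gene lies within the grey range of its column.

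At 1% oxygen the median difference between the genotypes was nearer to zero. In KO hypoxia against WT hypoxia, limma, edgeR and DESeq2 called 0 of the 76 genes higher and 0 lower. Of all genes limma called 3.33% higher and 5.61% lower (8.95% in either direction). Of the 76, 1 gene (1.32%) had an unadjusted p under 0.05, against 21.0% of all genes. The median was 0.015 with 54 genes positive, against 0.004 over all genes. It was -0.009 without WT hypoxia library 3 and -0.005 without KO hypoxia library 1 (30 positive each), 0.036 without WT hypoxia library 1 (67 positive), 0.028 without KO hypoxia library 3 and 0.007 under total-count scaling. The groups did not overlap in 3 genes that were higher in KO (3.95%, against 12.4% of all genes) and in 0 that were lower (against 13.9%). The largest differences were those of Rpl38 and Rpl27 (0.09 each), and that of Rpl22l1 (0.07) was among the 4 largest. Among the 4 smallest were those of Rpl6 (-0.07), Rpl35 (-0.06) and Rpl15 (-0.05). That the KO difference was larger in normoxia than in hypoxia is the same quantity as the difference between hypoxia effects above, for which no gene passed the test.

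**Figure D5:**
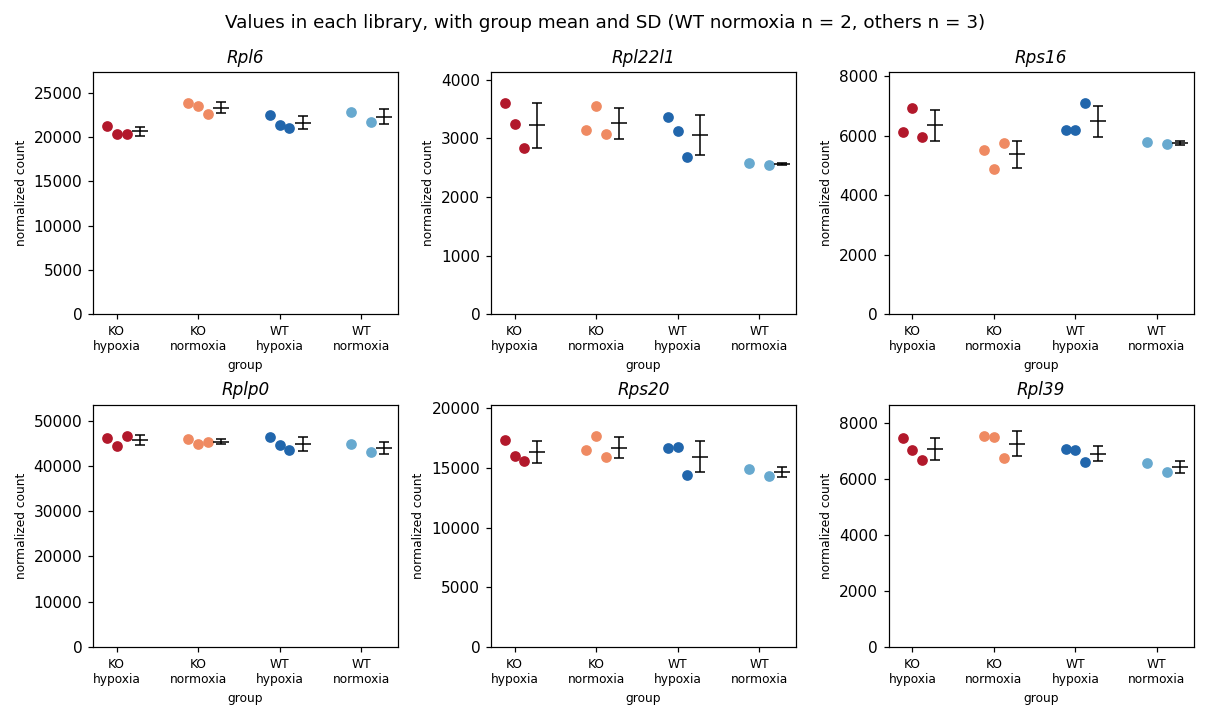
Normalized counts of 6 genes in each library (points), with group means and SDs (bars), from 0. Rpl6 is lower in KO hypoxia than in KO normoxia, Rps16 is higher, and WT normoxia has the lowest values of Rpl22l1.

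By place in the ribosome, the stalk is built of Rplp0, Rplp1, Rplp2 and Rpl12. Rplp0 stood at 46167, 44378 and 46553 normalized counts in KO hypoxia, 45883, 44801 and 45176 in KO normoxia, 46421, 44681 and 43484 in WT hypoxia, and 44875 and 43035 in WT normoxia. All groups overlapped for it, and its differences lay between 0.01 and 0.04 in the 4 comparisons of groups. Rplp2 stood at 8436, 8382 and 7624 in WT hypoxia, and at 8049, 8304 and 8114 in KO normoxia, against 7557 and 7205 in WT normoxia. Both differences from WT normoxia were 0.14 (SE 0.05), with adjusted p of 0.233 for WT hypoxia and 0.104 for KO normoxia; they share the WT normoxia libraries.

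Rpl5 and Rpl11 join 5S rRNA in a particle known to bind MDM2 when ribosome assembly is disturbed. Rpl11 averaged 9942 ± 35.2 normalized counts in KO hypoxia, 9862 ± 138 in KO normoxia, 9944 ± 313 in WT hypoxia (SD, n = 3 each) and 9512 ± 353 in WT normoxia (SD, n = 2). Its differences lay between 0.00 and 0.06 and those of Rpl5 between -0.07 and 0.06, with adjusted p of 0.400 or more. The 8 genes around the tunnel exit (Rpl17, Rpl19, Rpl22, Rpl23a, Rpl26, Rpl31, Rpl35 and Rpl39) had medians of -0.04 in KO hypoxia against KO normoxia, 0.00 in WT hypoxia against WT normoxia, 0.03 in KO against WT normoxia and -0.00 in KO against WT hypoxia. Rps2 and Rps3, at the mRNA entry, differed by -0.00 and 0.02 in KO cells and by 0.04 and 0.10 in WT cells between hypoxia and normoxia. None of these genes of the stalk, the 5S particle, the tunnel exit and the mRNA entry was called by limma in any of the 5 comparisons.

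Rps6 stood at 20097, 19425 and 19185 normalized counts in KO hypoxia, 20446, 20437 and 19347 in KO normoxia, 20187, 19752 and 19105 in WT hypoxia, and 20418 and 19126 in WT normoxia. Its differences lay between -0.04 and 0.02, and every group overlapped every other. Rps19 and Rps26, whose human counterparts are mutated in Diamond-Blackfan anaemia, had differences between -0.01 and 0.13 and between -0.08 and 0.04. Rpl10, Rpl36a, Rpl39 and Rps4x, on the X chromosome, had differences between -0.05 and 0.18, and Rpl3 and Rpl4, which reach into the core of the large subunit, between -0.04 and 0.05. Rpsa, which encodes a small-subunit protein also known as a laminin receptor, had differences between -0.00 and 0.05. Rps28 and Rps29 ranged between -0.07 and 0.07, Rpl7 between -0.06 and 0.11, Rpl27a between -0.02 and 0.06, and Rpl41 between -0.07 and 0.06. Rpl13a ranged between -0.05 and 0.04 and Rps18 between -0.03 and 0.11. Apart from Rpl39, no adjusted p of these genes was under 0.140.

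By subunit, the small-subunit medians were -0.02, 0.03, 0.06 and 0.02, and the large-subunit medians -0.03, 0.02, 0.06 and 0.01, in the order KO hypoxia against KO normoxia, WT hypoxia against WT normoxia, KO against WT normoxia and KO against WT hypoxia. Chromosome 7, which carries Arntl, holds 12 of the genes, the nearest being Rpl27a at 3.69 Mb and Rps3 at 13.7 Mb. Their median in KO against WT was 0.06 in normoxia, with 0.06 for the other 64 genes, and -0.01 in hypoxia, with 0.02 for the others. The 6 genes with an E-box in the promoter window had a median of 0.09 (0.03 to 0.11) in KO against WT normoxia and -0.00 (-0.03 to 0.02) in KO against WT hypoxia, with 0 called. The 50 matched genes without one had medians of 0.06 and 0.02, also with 0 called. The 18 genes with ACGTG had medians of -0.03 in KO and 0.04 in WT between hypoxia and normoxia, and the 38 without it -0.03 and 0.02.

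Relatives of the ribosomal protein genes that the naming rule does not take were looked at beside them. Of 11 such genes 9 were listed and tested. Rps3a1 and Fau, which encode ribosomal proteins under other names, and the ribosome-bound scaffold gene Rack1 averaged 22810, 6862 and 31120 normalized counts over all libraries. Rps27l, a relative of Rps27 known as a p53 target, had differences of -0.17 in KO hypoxia against KO normoxia (adjusted p = 0.128) and 0.17 in KO against WT normoxia (adjusted p = 0.112). Rps27rt, Rpl36al and Rpl39l were not called in any comparison. Rps4l, annotated as a pseudogene, fell: it averaged 128 ± 9.20 in KO normoxia (n = 3), against 208 ± 21.1 in WT normoxia (n = 2), a difference of -0.70 (SE 0.12, adjusted p = 0.00252). In hypoxia it averaged 126 ± 2.05 in KO cells, against 203 ± 22.3 in WT cells (SD, n = 3 each), a difference of -0.68 (SE 0.11, adjusted p = 0.00108).

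The wider ribosome programme was read from lists of genes other than the 76. Ribosome biogenesis factors, which process and assemble rRNA, had 0 of 47 called in every comparison of groups in limma, with medians of -0.07 in KO hypoxia against KO normoxia, -0.03 in WT hypoxia against WT normoxia, 0.06 in KO against WT normoxia and 0.04 in KO against WT hypoxia. Of the 47, 39 were positive in KO against WT normoxia and 38 in KO against WT hypoxia. Of all genes tested, 51.1% and 51.4% were positive there. Between hypoxia and normoxia, 12 of the 47 were positive in KO cells and 16 in WT cells, against 48.6% and 49.4% of all genes. Under total-count scaling 2 of the 47 were called lower in WT hypoxia. Chaperones and importers of ribosomal proteins had 0 of 11 called. In KO against WT normoxia, 3.44% of all genes tested were called higher and 5.66% lower. There translation factors and other genes of the TOP class had 2 of 22 higher and 0 lower, and elsewhere 0 called. Those were Eif4a2, a helicase of translation initiation (0.23, SE 0.05, adjusted p = 0.0106), and Npm1, a nucleolar chaperone (0.21, SE 0.06, adjusted p = 0.0443); under total-count and upper-quartile scaling 1 of 22 was called. The calls ended for Eif4a2 without WT normoxia library 1 (adjusted p = 0.0985), and for Npm1 with any of 8 of the 11 libraries left out (adjusted p = 0.377 without WT normoxia library 2) and in edgeR (adjusted p = 0.052).

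Regulators of TOP translation and ribosome synthesis came next. Of 21 tested, 2 rose and 0 fell in hypoxia in each genotype, Ddit4, the inhibitor of mTORC1, and Mxi1, an antagonist of MYC. Of all genes tested, 3.15% were called higher and 0.937% lower in KO cells, and 1.7% and 0.468% in WT cells. Ddit4 averaged 583 ± 46.0 normalized counts in KO hypoxia, against 220 ± 25.2 in KO normoxia (SD, n = 3 each), a difference of 1.40 (SE 0.11, adjusted p = 2.67e-06). It averaged 903 ± 126 in WT hypoxia (SD, n = 3), against 335 ± 12.1 in WT normoxia (SD, n = 2), a difference of 1.42 (SE 0.12, adjusted p = 8.86e-06). Mxi1 differed by 1.45 (SE 0.12) in KO cells and by 1.58 (SE 0.14) in WT cells. Ddit4 was lower in KO than in WT at both oxygen levels, with differences of -0.61 in normoxia (adjusted p = 0.00561) and -0.62 in hypoxia (adjusted p = 0.00185). Eef2k, the kinase that inhibits elongation factor 2, was also lower, with differences of -0.50 in normoxia (adjusted p = 0.0253) and -0.44 in hypoxia (adjusted p = 0.0255). Tsc1, a subunit of the complex that restrains mTORC1, was higher in KO normoxia (0.24, adjusted p = 0.0313). In KO against WT, 1 of 21 thus rose and 2 fell in normoxia, and 0 rose and 2 fell in hypoxia. Of all genes, 3.44% were called higher and 5.66% lower in normoxia, and 3.33% and 5.61% in hypoxia. Under total-count scaling 0 of the 21 rose in normoxia. Leaving out 1 library ended no hypoxia call of Ddit4 or Mxi1. Without WT normoxia library 2, the normoxia calls of KO against WT ended for Ddit4 (adjusted p = 0.0621), Eef2k (0.232) and Tsc1 (0.190), and in hypoxia the call of Eef2k ended in 5 of 11 such fits (up to 0.108).

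Host transcripts of snoRNAs, whose short-lived RNAs often carry a TOP start, had 9 of 12 genes tested. Snhg17 fell in hypoxia in both genotypes: it averaged 579 ± 41.9 in KO hypoxia, against 690 ± 29.5 in KO normoxia (SD, n = 3 each; -0.25, SE 0.06, adjusted p = 0.0412). It averaged 558 ± 12.1 in WT hypoxia (n = 3), against 710 ± 7.97 in WT normoxia (n = 2; SD; -0.35, SE 0.07, adjusted p = 0.0198). Gas5 rose in KO against WT normoxia (0.17, SE 0.04, adjusted p = 0.0292) and Snhg5 in KO against WT hypoxia (0.24, SE 0.07, adjusted p = 0.0378); neither was called under total-count scaling. Each of these counts is 1 of 9. Of all genes, 0.937% were called lower in hypoxia in KO cells and 0.468% in WT cells. In KO against WT, 3.44% were called higher in normoxia and 3.33% in hypoxia. With 1 of the 11 libraries left out in turn, the call ended in 9 fits for Snhg17 in KO cells and 3 in WT cells, in 4 for Gas5 and in 6 for Snhg5. The highest adjusted p in these fits was 0.163 for Snhg17 in KO cells (without KO normoxia library 1), and 0.166 for Snhg17 in WT cells and 0.265 for Gas5 (both without WT normoxia library 2). For Snhg5 it was 0.148 (without KO hypoxia library 3). Mitochondrial ribosomal proteins, which build a separate ribosome, had 2 of 77 lower in KO hypoxia, Mrps5 (-0.30, adjusted p = 0.0245) and Mrpl47 (-0.28, adjusted p = 0.0371), and 1 of 77 higher in WT hypoxia, Mrpl45 (0.30, adjusted p = 0.00799). Of all genes, 0.937% were called lower in KO hypoxia and 1.7% higher in WT hypoxia. In KO against WT, 0 of 77 were called in limma at either oxygen level, against 9.09% of all genes in normoxia and 8.95% in hypoxia. Under total-count scaling 2 of the 77 were lower in normoxia. With 1 library left out in turn, the call ended in 5 fits for Mrps5 (adjusted p up to 0.110, without KO normoxia library 2), in 6 for Mrpl47 (up to 0.156, without KO normoxia library 1) and in 2 for Mrpl45 (up to 0.098, without WT normoxia library 2).

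Reads of ribosomal protein genes can be shared with their processed pseudogenes, and how such reads were assigned is not visible in the values. Of 134 listed pseudogenes named after Rpl or Rps genes, 63 were tested. Their reads came to 1.75% to 2.36% of those of the 76 genes. For single genes the share was highest for Rps6, whose 3 listed pseudogenes summed to 13.7% of its own mean value, Rpl31 (10.2%) and Rpl27 (10.1%). In KO against WT 5 pseudogenes rose and 2 fell at each oxygen level: 6 of the 7 are named after Rps13 or Rps15a, and the other is Rps4l. Of all genes tested, 3.44% were called higher and 5.66% lower in normoxia, and 3.33% and 5.61% in hypoxia. In hypoxia against normoxia 0 of 63 were called in limma in either genotype.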

How the data were processed

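RNA-seq of 11 libraries (TruSeq Stranded Total RNA, 1 µg of RNA) was analysed from a deposited table of gene values. The submitters' processing notes give the build mm10 and list STAR, HTSeq, RSEM, DESeq2, bcl2fastq and Picard without versions; which program counted, and whether strand was used, is not given in the sources used here. The deposited values are a normalized signal: the authors' counts divided by 1 size factor per library, from which whole reads were recovered for 100% of values (tolerance 0.01). Values plus a pseudocount of 1 were taken to log2, genes with at least 10 in at least 2 libraries were kept, and limma 3.58.1 (R 4.3.3) with a variance trend was fitted to 4 group means over all 11 libraries (7 residual degrees of freedom, prior 6.35). The 5 contrasts were read from that fit, each adjusted over all 14729 genes, with 95% intervals. Alternatives were edgeR 4.0.16 and DESeq2 1.42.0 on the recovered reads, other scalings, pseudocounts and filters, and leaving out each library; total-count scaling without mitochondrial genes was chosen after seeing the data. The steps were tested on simulated data. Symbols, lengths and neighbours came from the GENCODE annotation of GRCm38, promoter windows from RefSeq. The genes described and all lists were chosen with earlier results of these data known. Genes named singly were a preset list, the called genes, the 4 largest and 4 smallest differences per comparison, the 3 highest and 3 lowest levels per kilobase, the relatives tested and up to 4 called genes per list; other genes named (for SD, range, pseudogene share, overlap or snoRNA) were chosen after their values were seen. Some genes that these rules name are not reported here. Replicates of a group differed beyond sampling noise (chi-square per degree of freedom 4.33 to 20.9), and no library was counted as a repeat of another. Such a difference cannot show whether the libraries came from separate animals or cultures. Replicate numbers follow accession order and only name libraries.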

Additional observations from a re-analysis of the deposited data

How the results depend on the processing

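For the 76 genes, 323 of 342 values that answer a comparison (medians and counts of genes called, under each alternative) kept their direction and stayed within the limits set. In KO hypoxia against KO normoxia, DESeq2 called 1 gene higher where limma called 0. The count lower was 0 with no trend of variance, against 1, and 0 to 1 when single libraries were left out. In WT hypoxia against WT normoxia the median was -0.027 under total-count scaling and -0.017 under total-count scaling without mitochondrial genes, against 0.021. There DESeq2 called 1 gene higher, and leaving out single libraries gave 0 to 1, against 0. In KO normoxia against WT normoxia, a pseudocount of 5, a minimum value of 50, DESeq2 and a fit of the 2 groups alone called 1 gene higher each, and leaving out single libraries gave 0 to 3, against 0. The count of 3 was without WT hypoxia library 3, with Rpl22l1 and Rps20 among them. Signs of single values were followed for the called gene and the genes with the 4 largest and 4 smallest differences of each comparison. These changed sign only where 1 library was left out, and none was called there. Values nearer to zero also changed sign with the scaling: in WT hypoxia against WT normoxia 25 of the 76 were positive under total-count scaling, against 49. In KO against WT normoxia Rpl35 ranged from -0.14 to 0.01 (positive without WT normoxia library 1) and Rps27 from -0.07 to 0.06 (0.06 without WT normoxia library 1, 0.01 without KO normoxia library 3). In KO against WT hypoxia Rpl22l1 ranged from -0.02 (without WT hypoxia library 3; -0.01 without KO hypoxia library 1) to 0.17. In the difference between hypoxia effects Rps16 ranged from -0.0014 (without KO normoxia library 2) to 0.13 and Rps27 from -0.01 (without WT normoxia library 1) to 0.11. The cause of these changes was not tested. The fit of 2 groups alone gives no value for the difference between hypoxia effects. No paired analysis was possible because the labels give no number, animal or day that links libraries of different groups. With 2 WT normoxia libraries, each comparison with that group rests on a lone library when the other is left out, and that library is then assumed to vary like the other groups.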

Other observations

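The introns of ribosomal protein genes carry many snoRNAs, which guide the modification of rRNA and are cut from the host transcript. In the annotation, 28 of the 76 genes hold 55 snoRNA genes, of which 22 were listed and 15 tested. Of the 15, only Snora3 within Rpl27a was called, and it was chosen after its values were seen. In KO hypoxia against KO normoxia all but Snord15a (0.18, without overlap) and Snord15b (0.01) had a negative difference. Besides Snora3, Snora33 (-0.98), Snora52 (-0.78), Gm24044 (-0.47), Gm22270 (-0.41) and Gm26448 (-0.32) were lower without overlap. Of all genes tested, 10.7% were lower without overlap and 0.937% were called lower. Gm24888, also within Rpl27a, differed by -0.64 (adjusted p = 0.237). Snora33 had low values, with means of 3.93 in KO hypoxia and 8.55 in KO normoxia. In WT hypoxia against WT normoxia all but Snora70 (0.23), Snora68 (0.06), Gm26205 (0.26) and Snord15b (0.36, without overlap) were also negative. There Snora52 (-0.5), Gm24044 (-0.44), Gm24888 (-0.38), Gm22270 (-0.3) and Snora3 were lower without overlap, against 14.4% of all genes, and none was called. Snora3 stood at 16.5, 10.9 and 22.5 normalized counts in KO hypoxia, 39.7, 46.2 and 53.2 in KO normoxia, 41.0, 25.3 and 39.6 in WT hypoxia, and 52.5 and 70.8 in WT normoxia. KO hypoxia was below every library of the other groups. The difference between KO hypoxia and KO normoxia was -1.47 (SE 0.27, adjusted p = 0.00722), and that between KO hypoxia and WT hypoxia -1.07 (SE 0.27, adjusted p = 0.0252). With 1 library left out in turn, the first call held in all 11 fits and the second ended in 4 (adjusted p up to 0.108, without KO hypoxia library 2). How reads that overlap the snoRNA gene and its host were counted is not given in the sources used here. In WT hypoxia against WT normoxia the Snora3 difference was -0.80 (SE 0.31, adjusted p = 0.258), and the difference between the hypoxia effects was -0.67 (SE 0.41, adjusted p = 0.917). The host, Rpl27a, differed by -0.02 in KO cells between hypoxia and normoxia and by 0.01 between KO and WT hypoxia. The 28 genes that hold a snoRNA gene had a median difference of -0.03 in KO hypoxia against KO normoxia and 0.03 in WT hypoxia against WT normoxia, and the 48 others -0.03 and 0.00.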
